A study of Mus musculus with 4 samples.

Results

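The platelet-derived growth factor (PDGF) system was described here through its 6 genes, the ligand genes Pdgfa, Pdgfb, Pdgfc and Pdgfd and the receptor genes Pdgfra and Pdgfrb. They were taken by gene symbol from the 32285 genes of a Visium experiment on injured mouse brain, and all 6 had counts. Visium lays a thin tissue slice over a glass area printed with barcoded spots, each of which captures messenger RNA from a small patch of tissue that can hold several cells of different types. The experiment had 4 capture areas of 2 slices, each slice from a different mouse, and counted unique molecular identifiers (UMIs), so that each RNA molecule is counted once. Values are given as UMIs per 10000 UMIs of all genes in the same spots, and they compare one gene between places and not one gene with another.

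Injury was photothrombotic (PT): light shone through the skull over the S1 cortex of mice given the dye Rose Bengal, which closes the vessels beneath. The wild-type (WT) slices came from 1 resting mouse, 1 mouse at 2 days post-injury (dpi), 2 mice at 7 dpi and 2 mice at 21 dpi. A further 2 slices at 21 dpi were from PT-injured Cthrc1(creER); R26(DTA) mice, in which Cre from the Cthrc1 locus is designed to switch on diphtheria toxin in Cthrc1-expressing myofibroblasts after tamoxifen. The study set these mice aside because deletion was not detectable, and they are given here as a group of their own. The study's mice were 7 to 21 weeks old and of both sexes, and the labels give neither for a single mouse, nor a tamoxifen dose. Rest and 2 dpi shared 1 area, where the smaller piece of tissue was taken as rest and the larger as 2 dpi. Every other group filled an area of its own, so group and area cannot be told apart, and p-values cover the spread between slices.

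PDGF ligands are dimers that bind receptor tyrosine kinases on neighbouring cells. PDGF-A and PDGF-C act mainly through PDGFRα, PDGF-D acts mainly through PDGFRβ, and PDGF-B binds both. In the adult brain Pdgfra marks oligodendrocyte precursor cells and fibroblasts. Pdgfrb marks the mural cells of vessels, which are pericytes and smooth muscle cells, and fibroblasts too. Endothelial Pdgfb holds pericytes to capillaries, and PDGF signalling drives fibroblast growth in scars of many organs.

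Spots were sorted by Col1a1, the type I collagen gene that marks fibroblasts. Fibrotic spots held at least 5 Col1a1 UMIs per 10000, and Col1a1-free spots held none. The fibrotic class had 112 and 392 spots in the 2 slices at 7 dpi, 170 and 203 in the WT slices at 21 dpi, and 193 and 274 in the Cthrc1(creER); R26(DTA) slices. The Col1a1-free class had 228 to 651 spots in these 6 slices. The slice at rest had only 3 fibrotic spots and the slice at 2 dpi 26, of which 17 held a single Col1a1 UMI. These slices therefore entered no test of fibrotic against Col1a1-free spots. All slices held between 11332780 and 23677298 UMIs. The median spot had 12447 to 16158 UMIs, except at 2 dpi, where it had 2633.5 and 21.7% of spots held under 1000. Fibrotic spots at 7 dpi were shallower than Col1a1-free spots, with medians of 4923.5 against 16149 UMIs in slice 1 and 9206.5 against 17361.5 in slice 2.

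The start-site windows of Pdgfra, Pdgfc and Pdgfd are shown because these genes, on different chromosomes, rose by more than 3-fold in fibrotic spots over 6 slices. Pdgfrb also rose by more than 3-fold, and its window is not shown here. Each window is RefSeq's (GRCm38.p6, plus strand), from 250 bases before to 50 bases after the start, and capitals mark the only motif found among those searched. The windows are at chr5:75152001-75152300, chr3:81036166-81036465 and chr9:6168236-6168535.
Pdgfra: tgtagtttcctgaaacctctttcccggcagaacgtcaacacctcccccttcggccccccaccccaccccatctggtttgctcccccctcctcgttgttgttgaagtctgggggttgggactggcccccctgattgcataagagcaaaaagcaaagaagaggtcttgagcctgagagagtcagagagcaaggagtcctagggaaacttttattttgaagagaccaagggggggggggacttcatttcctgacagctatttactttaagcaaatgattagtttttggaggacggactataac
Pdgfc: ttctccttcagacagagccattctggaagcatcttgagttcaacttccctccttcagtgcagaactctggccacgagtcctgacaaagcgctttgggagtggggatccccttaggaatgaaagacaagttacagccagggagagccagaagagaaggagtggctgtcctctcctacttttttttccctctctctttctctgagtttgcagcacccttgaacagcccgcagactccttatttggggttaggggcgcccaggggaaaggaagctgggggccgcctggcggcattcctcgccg
Pdgfd: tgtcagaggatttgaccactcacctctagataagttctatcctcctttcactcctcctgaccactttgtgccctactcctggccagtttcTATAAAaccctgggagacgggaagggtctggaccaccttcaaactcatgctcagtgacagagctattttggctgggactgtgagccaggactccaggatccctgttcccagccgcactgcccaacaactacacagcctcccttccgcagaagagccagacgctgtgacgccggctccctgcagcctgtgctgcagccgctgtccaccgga

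Both strands were searched for the TATA box TATAAA, the CCAAT box CCAAT, the GC box GGGCGG and the AP-1 motif TGANTCA. The windows of Pdgfra and Pdgfc held none of these. The window of Pdgfd held 1 TATAAA, in capitals, a motif found in 13.6% of 32851 mouse windows of the same length. It lies nearer to the upstream end of the window than to the start. The other motifs occurred in 37.4% (CCAAT), 35.7% (GGGCGG) and 7.81% (TGANTCA) of windows. GC content was 51% for Pdgfra, 55% for Pdgfc and 56.7% for Pdgfd, against a median of 52.7% over all windows. These 3 windows had no motif of the set in common.

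The genes lie apart in the genome (mm10, GENCODE M21 gene models). Pdgfa lies on chromosome 5 from 138976014 to 138997370 and Pdgfb on chromosome 15 from 79995874 to 80014977, both on the minus strand. Pdgfc lies on chromosome 3 from 81036416 to 81214040, Pdgfd on chromosome 9 from 6168584 to 6378850 and Pdgfra on chromosome 5 from 75152292 to 75198215, all on the plus strand. Pdgfrb lies on chromosome 18 from 61045150 to 61085061, also on the plus strand. The RefSeq window of Pdgfd ends at 6168535, before the 6168584 at which its gene model begins.

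Pdgfrb had the largest difference of the 6 genes between fibrotic and Col1a1-free spots. At 7 dpi it rose from 0.132 UMIs per 10000 in Col1a1-free spots to 0.697 in fibrotic spots of slice 1, and from 0.110 to 0.808 in slice 2. In the WT slices at 21 dpi the values were 0.121 and 1.05 in slice 1 and 0.139 and 0.883 in slice 2. In the Cthrc1(creER); R26(DTA) slices they were 0.104 and 0.977, and 0.100 and 0.973. All 6 fibrotic values were above all 6 Col1a1-free values, in a comparison that called 70.1% of 14477 genes over the 6 slices with 35.3% of the 14477 called higher in fibrotic spots. UMIs were summed in each class of each slice and tested with edgeR (quasi-likelihood, the slice as a block, Benjamini-Hochberg adjustment over all genes tested). The log2 fold change of Pdgfrb was 2.72 ± 0.19 (SE, n = 2 slices, edgeR adjusted p = 8.59e-06) at 7 dpi. It was 2.96 ± 0.18 (n = 2, edgeR adjusted p = 8.49e-07) in WT slices at 21 dpi. Over all 6 slices it was 2.98 ± 0.11, a 7.87-fold difference (edgeR, adjusted p = 7.81e-09). Fibrotic spots were chosen by Col1a1, a fibroblast gene, and Pdgfrb and Pdgfra also mark fibroblasts. A rise of both can thus follow from that choice, and how much of it does was not tested. In the same fit the fibroblast markers used below had log2 fold changes from 3.49 (Col5a1) to 6.52 (Col3a1). In spots, fewer cells of a type and less RNA per cell cannot be told apart.

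Pdgfra, the other receptor, was also higher in fibrotic spots of all 6 slices, by less. At 7 dpi it had 0.256 UMIs per 10000 in Col1a1-free and 0.579 in fibrotic spots of slice 1, and 0.225 and 0.576 in slice 2. The WT slices at 21 dpi had 0.206 and 0.823, and 0.197 and 0.610. The Cthrc1(creER); R26(DTA) slices had 0.159 and 0.810, and 0.184 and 0.703. The classes did not overlap for Pdgfra, and neither did they for Pdgfrb, Pdgfa or Pdgfc. The comparison called 70.1% of 14477 genes, and the share of all genes without overlap is not given here. The log2 fold change over 6 slices was 1.78 ± 0.10, or 3.43-fold (edgeR, adjusted p = 1.12e-07). The slice-by-slice difference between the receptors' log2 ratios, a comparison chosen after the values were seen, was 1.19 ± 0.23 (SD), and Pdgfrb had the larger ratio in 6 of 6 slices. An exact two-sided sign-flip permutation test over the 6 slices gave p = 0.0312, and 0.0469 after Benjamini-Hochberg adjustment over 3 such tests. With all 6 slices already seen to agree, p could only be the smallest that 6 slices allow. The adjustment does not cover that choice, so these p-values are descriptive.

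Of the ligand genes, Pdgfc and Pdgfd differed more between the classes than Pdgfa and Pdgfb did in the fit over 6 slices, though their differences from each other were not tested. PDGF-C and PDGF-D are secreted latent and need a protease to remove their CUB domain. In 7 dpi slice 1, Pdgfc had 0.0774 UMIs per 10000 in Col1a1-free and 0.106 in fibrotic spots. In slice 2 it had 0.0538 and 0.248. The slices at 7 dpi thus differed from each other, while in all 4 slices at 21 dpi the fibrotic value was between 0.201 and 0.292 and the Col1a1-free value between 0.0484 and 0.0796. The log2 fold change over 6 slices was 1.75 ± 0.20, or 3.36-fold (edgeR, adjusted p = 2.23e-05).

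Pdgfd, the other latent ligand, turned direction in 1 slice. In 7 dpi slice 1 it had 0.0788 UMIs per 10000 in Col1a1-free spots and 0.0472 in fibrotic spots, where only 4 UMIs were counted. In 7 dpi slice 2 it had 0.0231 and 0.0865. In the WT slices at 21 dpi it had 0.0515 and 0.210, and 0.0212 and 0.172. The Cthrc1(creER); R26(DTA) slices had 0.0121 and 0.167, and 0.0418 and 0.165. Several Col1a1-free values also rested on few UMIs, with 9 in 7 dpi slice 2, 7 in 21 dpi WT slice 2 and 5 in Cthrc1(creER); R26(DTA) slice 1. The other slices had 39 to 56. Pdgfd was higher in fibrotic spots of 5 of 6 slices. Its log2 fold change was 0.88 ± 0.60 at 7 dpi (edgeR, adjusted p = 0.265), 2.41 ± 0.50 in WT slices at 21 dpi (adjusted p = 0.00233) and 1.93 ± 0.31 over 6 slices (adjusted p = 0.000299).

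Pdgfa and Pdgfb were higher in fibrotic spots of all 6 slices, by smaller amounts. Pdgfa ranged from 0.370 to 0.512 UMIs per 10000 in Col1a1-free spots and from 0.548 to 0.803 in fibrotic spots. The Pdgfa classes did not overlap, in the comparison that called 70.1% of 14477 genes. Within slices its ratio was lowest in Cthrc1(creER); R26(DTA) slice 2 (1.17) and highest in 7 dpi slice 1 (1.77). Its log2 fold change over 6 slices was 0.55 ± 0.08 (edgeR, adjusted p = 0.000148). Pdgfb ranged from 0.187 to 0.310 in Col1a1-free and from 0.304 to 0.453 in fibrotic spots. The Pdgfb classes overlapped between slices, because the Col1a1-free spots of 7 dpi slice 2 had slightly more Pdgfb (0.310) than the fibrotic spots of Cthrc1(creER); R26(DTA) slice 1 (0.304). Within each slice the ratio was 1.46 to 2.17, and the log2 fold change over 6 slices was 0.76 ± 0.10 (edgeR, adjusted p = 8.33e-05).

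**Figure D1:**
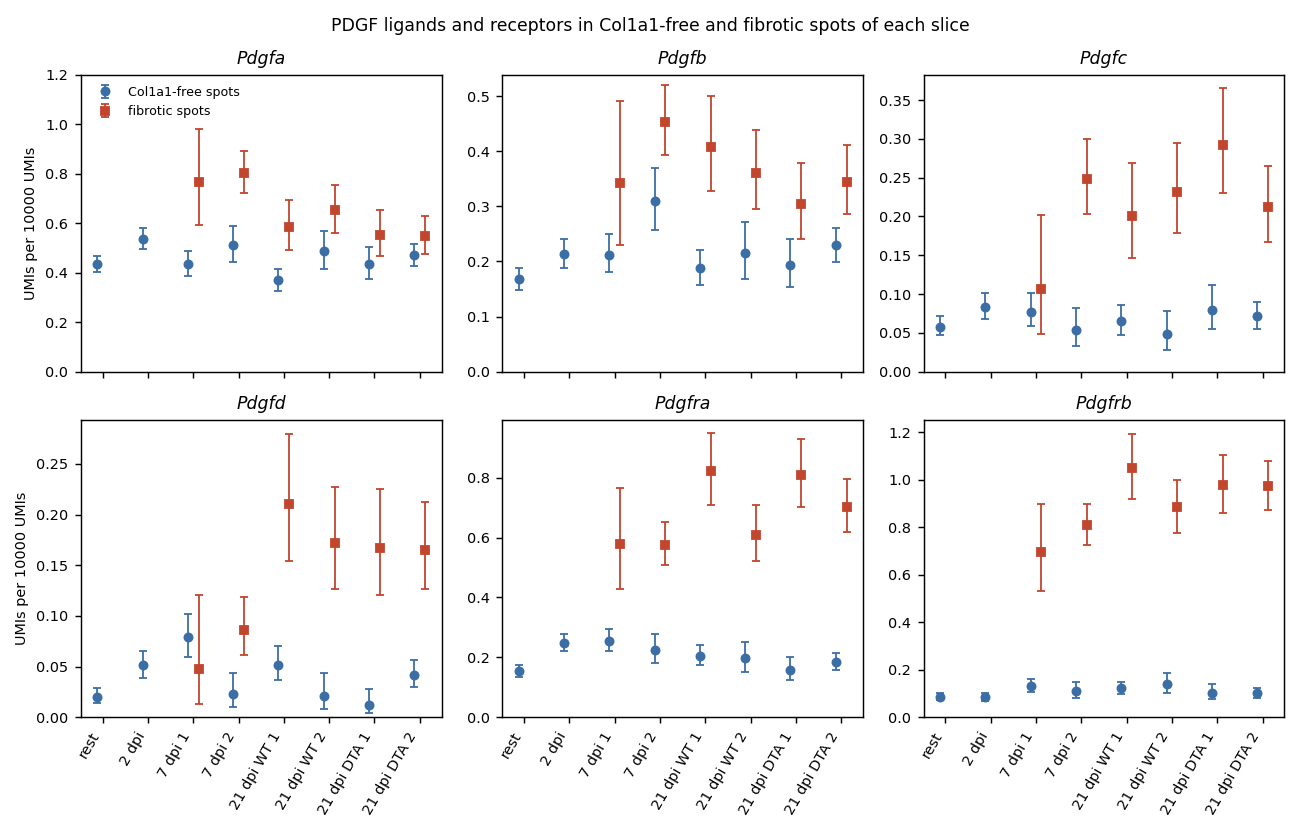
UMIs per 10000 UMIs of the 6 genes (vertical axes, each starting at 0) in Col1a1-free spots (circles) and fibrotic spots (squares) of each slice (horizontal axis; DTA, Cthrc1(creER); R26(DTA)), with exact 95% Poisson intervals that cover counting error only. Fibrotic values are drawn for the 6 slices at 7 and 21 dpi. In those slices fibrotic Pdgfrb lies between 0.697 and 1.05 and Col1a1-free Pdgfrb between 0.100 and 0.139. Among the intervals that overlap are those of Pdgfb, Pdgfc and Pdgfd in 7 dpi slice 1.

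Large parts of the transcriptome separated these classes, so counts of called genes must be read against that. At 7 dpi, 5 of the 6 genes were called higher, all but Pdgfd, while 42.8% of 14477 genes tested were called in either direction and 22.2% were called higher. In WT slices at 21 dpi all 6 were higher, against 56.4% of genes called and 29.0% called higher. In Cthrc1(creER); R26(DTA) slices 5 were higher, all but Pdgfa at a log2 fold change of 0.26 ± 0.14 (edgeR, adjusted p = 0.132), against 55.3% and 28.8%. Over 6 slices all 6 were higher, against 70.1% called and 35.3% called higher. The median log2 fold change of the 6 genes over 6 slices was 1.76, and that of all genes tested was 0.01. Calls rested in part on single slices. Without 7 dpi slice 2, 3 of the 6 genes were called at 7 dpi, Pdgfb and Pdgfc were no longer called, and the log2 fold change of Pdgfd turned to -0.65. The Pdgfb call at 7 dpi was also lost without slice 1 (adjusted p = 0.0839) and with DESeq2 (adjusted p = 0.0632).

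**Figure D2:**
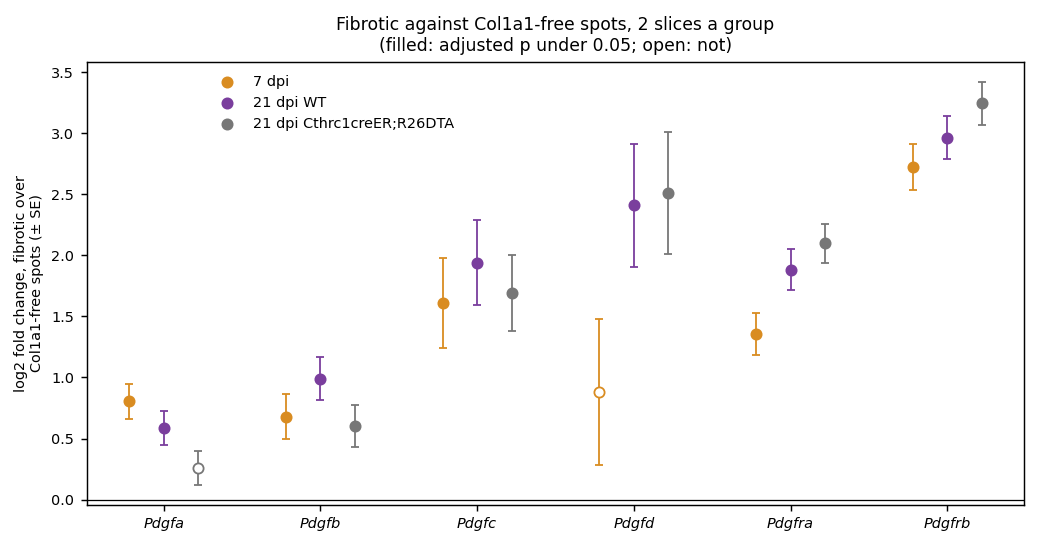
Log2 fold change of fibrotic over Col1a1-free spots with its SE (vertical axis) for each gene (horizontal axis) in each group of 2 slices, from edgeR. Filled points passed an adjusted p of 0.05 and open points did not. Pdgfrb is the highest of the 6 in each group (2.72 at 7 dpi, 2.96 in WT slices at 21 dpi and 3.24 in Cthrc1(creER); R26(DTA) slices), and the open points are Pdgfd at 7 dpi and Pdgfa in Cthrc1(creER); R26(DTA) slices.

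Levels were also read over steps of Col1a1 across spots. In spots with no Col1a1, Pdgfrb had a median over 6 slices of 0.116 UMIs per 10000. With 2 to under 5 Col1a1 UMIs per 10000 the median was 0.249, with 5 to under 10 it was 0.451, with 10 to under 20 it was 0.784, and with 20 or more it was 1.39. Pdgfrb was higher at every step in 5 of 6 slices, and the exception was 7 dpi slice 1, with 21 spots in the top class. Pdgfra went from a median of 0.201 to 0.305, 0.569, 0.662 and 0.812 over the same classes. It was higher at every step in 2 of 6 slices and highest in the top class in 5 of 6. Spots with 2 to under 5 Col1a1 UMIs per 10000, below the fibrotic threshold, already exceeded Col1a1-free spots in all 6 slices for both receptors. Pdgfc differed from Col1a1-free spots mainly at the top. Its median was 0.0679 without Col1a1, 0.0686 at 2 to under 5 and 0.311 at 20 or more. Pdgfd had medians of 0.0324, 0.0653 and 0.218 in these classes, and its top class ranged from 0 to 0.294 between slices. For each of these ligand genes the 2 to under 5 class exceeded Col1a1-free spots in 3 of 6 slices. Pdgfa had medians of 0.638, 0.634, 0.669 and 0.590 from 2 to under 5 upwards and was highest in the top class in only 1 of 6 slices. These are descriptions over spots of the same slices, with no test. The steps are of a fibroblast gene, so a rise of the receptor genes, which also mark fibroblasts, can follow from the grouping.

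**Figure D3:**
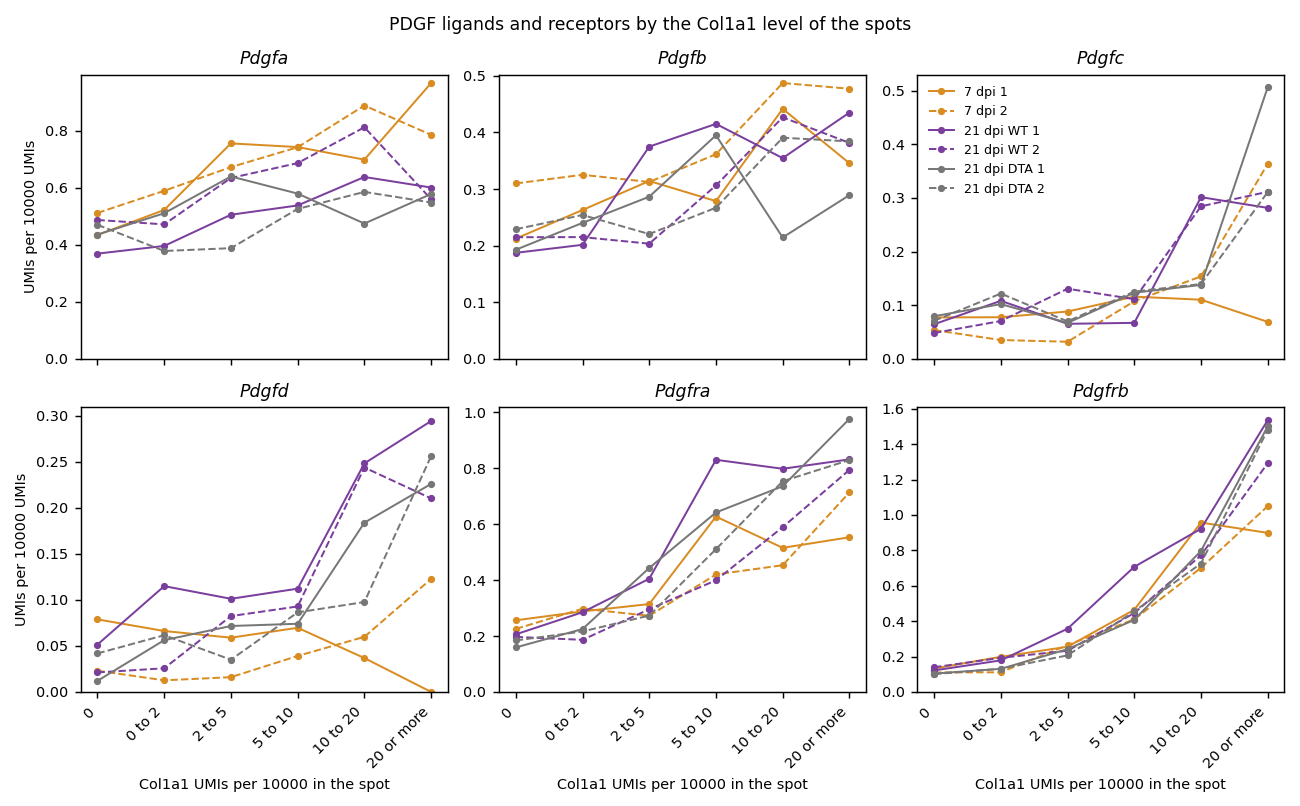
UMIs per 10000 UMIs of each gene (vertical axes, starting at 0) in spots grouped by Col1a1 UMIs per 10000 (horizontal axes), with 1 line for each of the 6 slices (DTA, Cthrc1(creER); R26(DTA)). Pdgfrb goes from 0.100 to 0.139 without Col1a1 to between 0.899 and 1.54 at 20 or more, and Pdgfa lies between 0.549 and 0.968 there without a steady climb.

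The maps of single spots show where receptor UMIs fell in 2 slices. In 7 dpi slice 2, 50.3% of 392 fibrotic spots held a Pdgfrb UMI, against 16.2% of 228 Col1a1-free spots. For Pdgfra the shares were 37.2% and 28.1%. In 21 dpi WT slice 1, Pdgfrb was found in 58.2% of 170 fibrotic and 12.9% of 638 Col1a1-free spots, and Pdgfra in 51.8% and 20.1%. Shares of spots with a UMI depend on depth, and at 7 dpi the fibrotic spots were the shallower class.

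**Figure D4:**
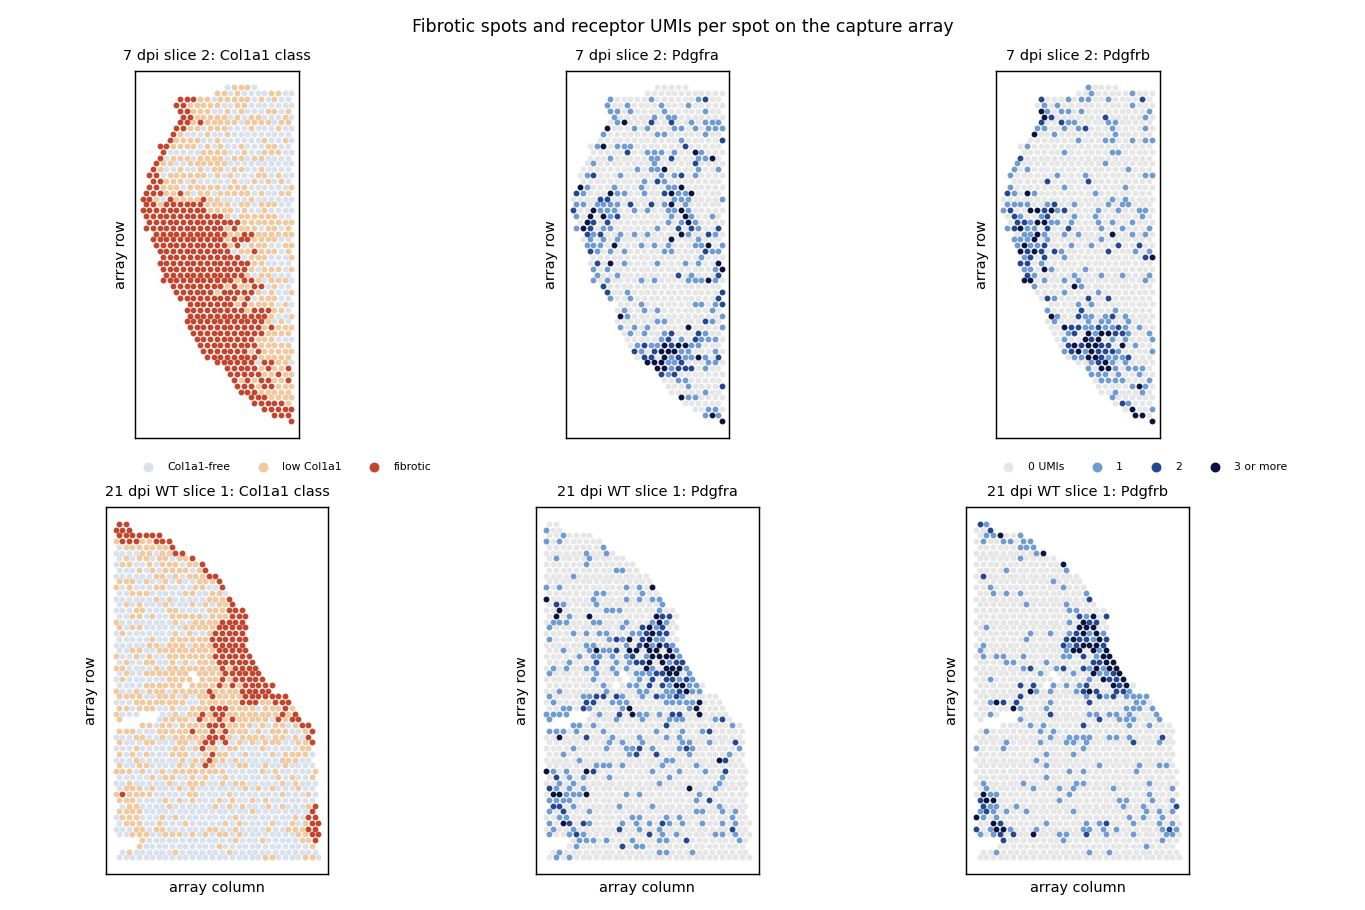
Spots of 7 dpi slice 2 (upper row) and 21 dpi WT slice 1 (lower row) at their array columns and rows, coloured by Col1a1 class (left) and by UMIs of Pdgfra (middle) and Pdgfrb (right) in the spot, from 0 to 3 or more. Pdgfrb was present in 50.3% and 58.2% of the fibrotic spots of the slices and in 16.2% and 12.9% of the Col1a1-free spots.

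Which cell types the genes went with was described through marker lists. In each slice, spots with at least 1000 UMIs were ranked by the summed share of a list, separately in each class, and the top 25% were set against the others. In Col1a1-free spots Pdgfra went with the 10 markers of oligodendrocyte precursors, which include Gpr17, Olig1, Olig2 and Sox10. It had 0.337 to 0.461 UMIs per 10000 in precursor-rich spots and 0.0984 to 0.201 in the others, a 2.80-fold difference of means that was present in 6 of 6 slices. In fibrotic spots the same split gave 1.12-fold, with 2 of 6 slices higher. In Col1a1-free spots Pdgfra was also 1.74-fold higher with oligodendrocyte and 1.57-fold higher with macrophage markers, each in 6 of 6 slices. The log2 ratio of Pdgfra in precursor-rich spots was larger in Col1a1-free than in fibrotic spots in 6 of 6 slices, by 1.34 ± 0.82 (SD). The exact two-sided sign-flip permutation test gave p = 0.0312, or 0.0469 adjusted over the 3 tests of this kind. This comparison too was chosen after the values were seen to agree in 6 of 6 slices. Its p could therefore only be the smallest possible, the adjustment does not cover the choice, and the p-values are descriptive. Of the precursor markers 3 of 10 were called higher in fibrotic spots over 6 slices and none lower, against 35.3% of all genes called higher. These 3 were Matn4, with a log2 fold change of 3.59 ± 0.17 (SE), Vcan, with 1.51 ± 0.19, and Cspg4, with 1.45 ± 0.10. They also count in the ranking of fibrotic spots by precursor markers, and their part in the Pdgfra contrast was not tested.

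Pdgfra went with macrophage markers in fibrotic spots too. Spots rich in the 13 macrophage and microglia markers, such as Cd68, Csf1r and C1qa, had 0.767 to 1.13 UMIs of Pdgfra per 10000, and the others had 0.321 to 0.687. The difference was 1.76-fold and held in 6 of 6 slices. Pdgfra was also higher in spots rich in 8 fibroblast markers, such as Col1a2, Dcn and Lum, by 1.29-fold in 6 of 6 slices. All 13 macrophage markers and all 8 fibroblast markers were called higher in fibrotic spots over 6 slices, against 35.3% of all genes tested. Fibrotic spots were chosen by Col1a1, a fibroblast gene, so higher fibroblast markers there follow from that choice. The macrophage list summed to 102 to 142 UMIs per 10000 in fibrotic spots and to 7.38 to 31.99 in Col1a1-free spots, and its part in the Pdgfra result was not tested.

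Of the lists, the pericyte markers gave Pdgfrb its largest difference in Col1a1-free spots, and the fibroblast markers did in fibrotic spots. In Col1a1-free spots it had 0.129 to 0.241 UMIs per 10000 where the 9 pericyte markers, such as Rgs5, Kcnj8 and Vtn, were rich, and 0.0735 to 0.110 elsewhere. That was 2.10-fold, in 6 of 6 slices. Pdgfrb was also higher there with endothelial (1.67-fold) and macrophage markers (1.40-fold), in 6 of 6 slices. The same held for astrocyte (1.63-fold), smooth muscle (1.59-fold) and fibroblast markers (1.46-fold), in 5 of 6. Only neuron-rich spots had a lower mean, at 0.64-fold. In fibrotic spots the pericyte split gave 1.48-fold, again in 6 of 6 slices. The fibroblast split gave 2.21-fold there, in 6 of 6 slices, with 0.841 to 1.98 against 0.623 to 0.783. The pericyte ratio was larger in Col1a1-free than in fibrotic spots in 5 of 6 slices, by 0.49 ± 0.40 (SD) on the log2 scale. The exact two-sided sign-flip permutation test over 6 slices gave p = 0.0625. With 1 slice seen to go the other way, p could not be smaller than this, so the test could not pass and decides nothing. Of the pericyte markers 7 of 9 were called higher in fibrotic spots over 6 slices, and the list summed to 3.24 to 4.59 UMIs per 10000 there and 1.35 to 2.12 in Col1a1-free spots. The pericyte and precursor lists share Cspg4. Of the other lists, 9 of 10 endothelial and all 6 tested smooth muscle markers were higher in fibrotic spots. Lower there were 10 of 10 neuron and 7 of 8 oligodendrocyte markers, and 3 astrocyte markers were higher and 3 lower of 8. Of all genes tested, 70.1% were called in either direction and 35.3% were called higher.

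The ligand genes split among these lists. In fibrotic spots Pdgfd was 2.24-fold higher where pericyte markers were rich and 1.97-fold higher where endothelial markers were rich, each in 6 of 6 slices, and 2.07-fold higher with smooth muscle markers in 5 of 6. It was higher with macrophage markers in 0 of 6 slices, at 0.68-fold. Pdgfc went the other way with macrophage markers (1.74-fold, 5 of 6 slices) and pericyte markers (0.72-fold). Both genes were higher with fibroblast markers in 5 of 6 slices, Pdgfc by 2.46-fold and Pdgfd by 1.44-fold. Pdgfb was 1.32-fold higher with macrophage and 1.25-fold higher with endothelial markers in fibrotic spots, in 5 and 4 of 6 slices. In Col1a1-free spots Pdgfb was 1.32-fold higher with endothelial markers, in 5 of 6. Pdgfa was 1.499-fold and 1.42-fold higher with precursor and oligodendrocyte markers in Col1a1-free spots, each in 6 of 6 slices, and in fibrotic spots no list raised it beyond 1.11-fold. Neuron-rich fibrotic spots had lower means of all 6 genes, from 0.33-fold for Pdgfc to 0.77-fold for Pdgfb, with 1 slice each the other way for Pdgfb and Pdgfd.

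**Figure D5:**
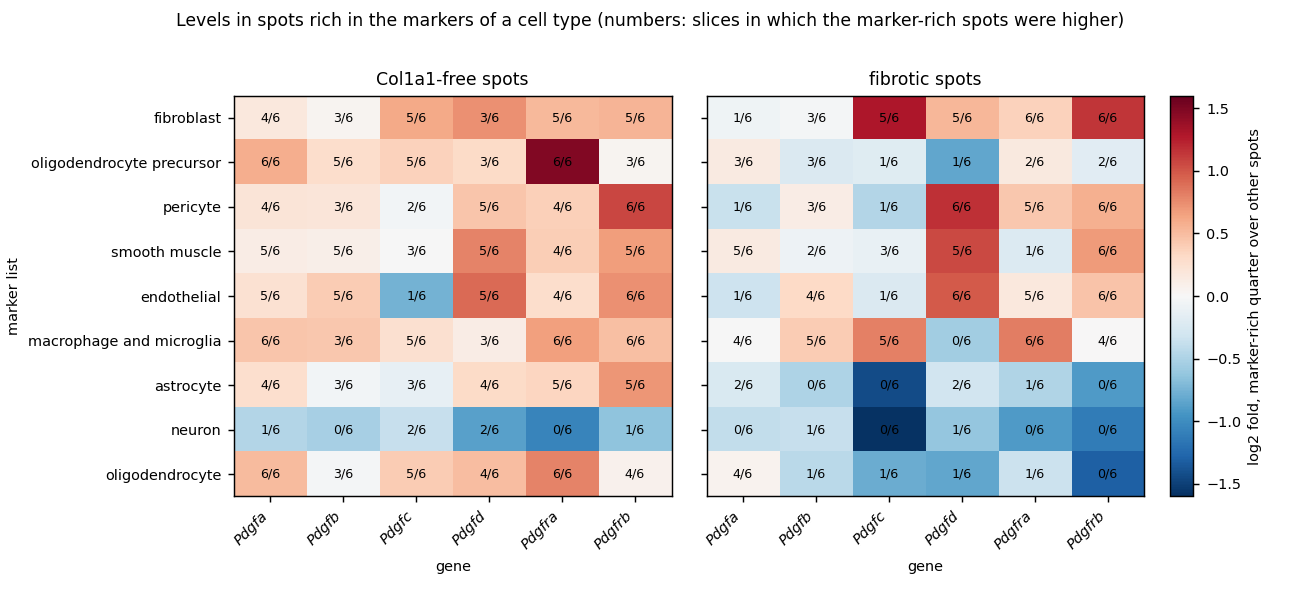
Log2 fold (colour, scale at right) between the 25% of spots richest in a marker list (vertical axis) and the other spots, for each gene (horizontal axis), in Col1a1-free (left) and fibrotic spots (right). Folds are of means over 6 slices, and the numbers give the slices in which marker-rich spots were higher. Pdgfra with precursor markers is 2.80-fold at left and 1.12-fold at right, and Pdgfrb with fibroblast markers is 1.46-fold at left and 2.21-fold at right.

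At 7 dpi, fibrotic spots could be divided by Cthrc1, a gene of collagen-producing myofibroblasts. Slice 1 had 38 fibrotic spots with a Cthrc1 UMI and 74 without, and slice 2 had 209 and 183. Pdgfrb was 0.915 UMIs per 10000 with Cthrc1 and 0.507 without in slice 1, and 0.927 and 0.593 in slice 2. Pdgfb was 0.508 and 0.199 in slice 1, and 0.524 and 0.325 in slice 2. Both genes were higher with Cthrc1 in both slices. So was Pdgfa, with 0.915 and 0.640 in slice 1 and 0.824 and 0.765 in slice 2. Pdgfd had 0.0508 and 0.0441 in slice 1, from 2 UMIs with Cthrc1 and 2 without, which separates nothing. In slice 2 Pdgfd had 0.0955 and 0.0702, from 27 and 11 UMIs. Pdgfc went opposite ways, with 0.0762 and 0.132 in slice 1, from only 3 and 6 UMIs, and 0.326 and 0.108 in slice 2. Pdgfra was 0.584 and 0.574 in slice 1 and 0.679 and 0.389 in slice 2, so that only slice 2 separated the spots. Deeper spots are likelier to hold a Cthrc1 UMI, and with 2 slices no test was made.

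Time after injury was compared between the slices at 7 dpi and the WT slices at 21 dpi. In fibrotic spots 1 of the 6 genes was called, while 4.39% of 13289 genes tested were called in either direction and 2.50% were called lower at 7 dpi. That gene was Pdgfd, with 0.0472 and 0.0865 UMIs per 10000 at 7 dpi and 0.210 and 0.172 at 21 dpi. Its log2 difference of 7 minus 21 dpi was -1.27 ± 0.30 (SE, edgeR, adjusted p = 0.0370). The call was lost with DESeq2 (adjusted p = 0.156), without the Cthrc1(creER); R26(DTA) slices in the fit (0.0585), and without any single slice except 21 dpi WT slice 2 (adjusted p from 0.0501 to 0.110). Pdgfa had 0.768 and 0.803 at 7 dpi and 0.586 and 0.652 at 21 dpi in fibrotic spots. Its difference of 0.37 ± 0.15 did not pass (edgeR, adjusted p = 0.215). Pdgfrb, at -0.31 ± 0.16, and Pdgfra, at -0.28 ± 0.19, did not pass (edgeR, adjusted p = 0.329 and 0.470).

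In Col1a1-free spots none of the 6 genes was called between 7 and 21 dpi by edgeR, with no unadjusted p under 0.05 either, while 3.14% of 14149 genes were called. The difference between the fibrotic effects at 7 and 21 dpi also gave no call, against 3.07% of 14477 genes, and no unadjusted p under 0.05. DESeq2 called none in either comparison. For the difference of effects the estimate farthest from 0 was that of Pdgfd, -1.53 ± 0.78 (edgeR, adjusted p = 0.332), followed by Pdgfra, -0.53 ± 0.24 (adjusted p = 0.278). Xist marked 5 of the 8 slices as female, among them both at 7 dpi, and Y-linked genes marked both WT slices at 21 dpi as male, so time, sex and capture area cannot be told apart.

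Cthrc1, whose locus drives Cre in the Cthrc1(creER); R26(DTA) mice, was read first. The study's lineage tracing placed the peak of Cthrc1 expression well before 21 dpi, so its level at 21 dpi is a weak reading of deletion. In fibrotic spots at 21 dpi Cthrc1 had 0.219 and 0.175 UMIs per 10000 in the WT slices and 0.101 and 0.132 in the Cthrc1(creER); R26(DTA) slices. Both of the latter were lower, but the log2 difference of -0.71 ± 0.23 did not pass (edgeR, adjusted p = 0.726). In the same spots edgeR called none of the 6 PDGF genes, with no unadjusted p under 0.05 either, and it called 0.0226% of 13289 genes. DESeq2 also called none of the 6. Xist marked Cthrc1(creER); R26(DTA) slice 1 as female, while Y-linked genes marked slice 2 and both WT slices as male. Genotype is thus mixed in part with sex and wholly with capture area here. Mean fibrotic Pdgfrb was 0.975 ± 0.003 (SD, n = 2) in Cthrc1(creER); R26(DTA) slices and 0.967 ± 0.118 (n = 2) in WT slices. The log2 difference was 0.02 ± 0.15 (SE). Pdgfra had 0.756 ± 0.076 and 0.716 ± 0.150, with a log2 difference of 0.09 ± 0.17. The differences of the 4 ligand genes lay between -0.23 ± 0.18 for Pdgfb and 0.21 ± 0.29 for Pdgfc.

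At rest and at 2 dpi there was 1 slice each, and no test was possible. Over all spots Pdgfra had 0.158 UMIs per 10000 at rest (exact 95% Poisson interval 0.139 to 0.178) and 0.260 at 2 dpi (0.233 to 0.289). Pdgfd had 0.0238 (0.0170 to 0.0326) and 0.0619 (0.0491 to 0.0769). For these 2 genes the slice at 2 dpi had the higher value by more than counting error. The same held for Pdgfa, with 0.431 (0.400 to 0.464) and 0.536 (0.497 to 0.577), and Pdgfb, with 0.169 (0.149 to 0.190) and 0.217 (0.192 to 0.244). The intervals overlapped for Pdgfc, with 0.0587 (0.0475 to 0.0717) and 0.0848 (0.0698 to 0.102), and for Pdgfrb, with 0.0893 (0.0754 to 0.105) and 0.0970 (0.0809 to 0.115). Overlap of 2 such intervals does not by itself place a difference within counting error. Pdgfrb over whole slices was 0.199 and 0.352 at 7 dpi and 0.257 to 0.358 in the 4 slices at 21 dpi, above rest and 2 dpi in each. The pieces covered different stretches of brain, 1017 spots at rest and 1726 at 2 dpi, and the part of anatomy in these differences was not tested.

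The rim of the tissue was examined because the meninges, which hold fibroblasts and vessels, lie there. Edge spots were those with a neighbouring array position off the tissue. Pdgfrb was higher at the edge in 8 of 8 slices, from 0.256 UMIs per 10000 to 1.13 (median 0.728) against 0.0772 to 0.331 (median 0.234) in the interior. At rest, with 65 Col1a1 UMIs in the whole slice, the values were 0.366 and 0.0772. Of the 6 genes 3 were called higher at the edge over 8 slices, against 23.2% of 13999 genes called in either direction and 13.5% called higher. These were Pdgfrb, with a log2 difference of 1.62 ± 0.18 (SE, edgeR, adjusted p = 4.72e-05), Pdgfra, with 0.66 ± 0.17 (adjusted p = 0.0156), and Pdgfd, with 1.52 ± 0.43 (adjusted p = 0.0220). Pdgfa, Pdgfb and Pdgfc had 0.15 ± 0.10, -0.07 ± 0.19 and 0.53 ± 0.21 and were not called. Only Pdgfrb was called without Cthrc1(creER); R26(DTA) slice 1, without both such slices, and in the 4 WT slices at 7 and 21 dpi. The Pdgfd call was also lost without 7 dpi slice 2, 21 dpi WT slice 1, Cthrc1(creER); R26(DTA) slice 2 or the slice at rest. Col1a1 was 3.21 to 48.1 times higher at the edge, and all 8 fibroblast and all 10 endothelial markers were called higher there. So were 6 of 9 pericyte markers, with Rgs5 at 1.24 ± 0.19 on the log2 scale, and 4 of 5 smooth muscle markers tested, with Acta2 at 2.51 ± 0.28. The part of these cells in the result was not tested.

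Col1a1-free tissue near fibrotic spots, 1 or 2 spot steps away, was set against tissue at least 5 steps away. Steps were counted from fibrotic spots with at least 2 fibrotic neighbours, so far spots could lie beside a lone fibrotic spot. Only 17 to 37 near spots remained in each slice. Near spots were shallower than far spots in every slice, with medians of 2934.5 to 10665 against 11182 to 18070 UMIs. Pdgfrb had 0.0732 to 0.293 UMIs per 10000 in near spots and 0.0980 to 0.136 in far spots, and near spots were higher in 4 of 6 slices. Pdgfa had 0.366 to 0.851 and 0.353 to 0.525, also higher in 4 of 6. Of the 5 genes that passed the count filter, all but Pdgfd, edgeR and DESeq2 called none, none had an unadjusted p under 0.05 by edgeR, and 7.85% of 11208 genes were called. The largest log2 differences were 0.68 ± 0.35 for Pdgfrb (adjusted p = 0.286) and 0.55 ± 0.52 for Pdgfc (adjusted p = 0.645). With their standard errors, differences of this size in the PDGF genes did not pass.

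The wider pathway was read from 41 genes in 5 lists. In fibrotic spots over 6 slices 22 were called higher, 8 lower and 11 were not called, with a median log2 fold change of 0.31. Over all genes tested 70.1% were called in either direction and 35.3% were called higher. All 5 co-receptors and extracellular binders were higher. Thbs1, whose product thrombospondin 1 is a matrix protein that binds growth factors, had a log2 fold change of 5.33 ± 0.12 (edgeR, adjusted p = 9.6e-10). Sparc, a matrix protein that binds PDGF-B, had 3.52 ± 0.16 (adjusted p = 3.8e-08), and Nrp1, a co-receptor of several growth factors, had 2.77 ± 0.15 (adjusted p = 1.12e-07). Of 9 genes that activate the ligands or inhibit that activation, 7 were higher, 1 lower and 1 not called. Plau, the urokinase that can cleave PDGF-D, had 3.01 ± 0.38. Plat, the tissue plasminogen activator that can cleave PDGF-C and named here after its value was seen, had 1.87 ± 0.15. Serpini1, the neuronal serpin, fell by 2.31 on the log2 scale (SE 0.10).

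Of 15 adaptors and effectors 4 were higher, 5 lower and 6 not called, with a median log2 fold change of 0.07. Shc1, an adaptor of many receptor kinases, had 2.84 ± 0.12 (edgeR, adjusted p = 2.26e-08). Nck1 had 0.73 ± 0.15 and Src -0.64 ± 0.12. Among 9 negative regulators 5 were higher, with Ptpn1, a phosphatase of receptor kinases, at 1.32 ± 0.10 and Spry1 at 1.05 ± 0.16, while Spry2 fell by 1.07 (SE 0.11). Of the kinases of the same receptor class Csf1r, the macrophage growth factor receptor, was higher at 1.65 ± 0.08, Flt3 fell by 1.19 (SE 0.23), and Kit, at -0.32 ± 0.15, was not called. Csf1r is also on the macrophage list.

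Pathway genes were also compared over time. In fibrotic spots Plau was higher at 7 than at 21 dpi by 1.92 ± 0.29 on the log2 scale (edgeR, adjusted p = 0.00533). Pcsk5, a proprotein convertase that belongs to the family processing PDGF-A and PDGF-B, was lower at 7 dpi, at -1.29 ± 0.24 (edgeR, adjusted p = 0.0150), as was A2m, a protease inhibitor that also binds PDGF, at -2.41 ± 0.34 (adjusted p = 0.00347). Of the 40 pathway genes tested there, 2 were higher and 2 lower at 7 dpi, against 4.39% of all genes called. In Col1a1-free spots 5 of 41 were higher at 7 dpi, among them Nrp1 at 1.73 ± 0.28, Sparc at 1.35 ± 0.23, Csf1r at 1.18 ± 0.15 and Serpine2 at 0.96 ± 0.13, and 10 of the 13 macrophage markers were higher too, against 3.14% of all genes called. The fibrotic effect at 7 dpi minus that at 21 dpi was -3.72 ± 0.26 on the log2 scale for A2m, -1.76 ± 0.37 for Sparc, -1.70 ± 0.38 for Nrp1 and -1.25 ± 0.19 for Csf1r, the 4 calls among 41, against 3.07% of all genes. In fibrotic spots alone, Sparc (-0.43 ± 0.20), Nrp1 (-0.07 ± 0.22) and Csf1r (-0.08 ± 0.13) were not called between 7 and 21 dpi, unlike A2m. Their edgeR adjusted p-values there were 0.275, 0.902 and 0.804, while in Col1a1-free spots they were higher at 7 dpi, as given above. At the tissue edge 10 of 40 pathway genes were higher and 1 lower, led by Thbs1 at 3.09, Sparc at 1.40 and Shc1 at 1.36 on the log2 scale, against 23.2% of all genes called and 13.5% called higher.

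Lastly, each gene was compared with 13985 others by the Pearson correlation of log2(CPM + 1), where CPM is UMIs scaled to the same total in every sum, over 23 sums of the 3 Col1a1 classes in each slice. The points share slices and a common fibrotic axis, so r is a description only. Pdgfrb was most like Gxylt2, Fstl1, Pdgfrl, Ctsk and Col12a1, with r from 0.974 to 0.983. Pdgfra was most like Slc39a14, Anxa5, Snhg18, Creb3l2 and Fkbp7, with r from 0.962 to 0.968. The ligand genes matched less closely. Pdgfc was most like Sdc2, Smoc2, Dock5, Tbx15 and Kirrel (r 0.908 to 0.936), and Pdgfb most like Ninj1, Angptl4, Tec, Plod3 and Plekho1 (r 0.910 to 0.920). Pdgfd was most like Msx1, Tcea3, Plscr2, BC067074 and Plce1 (r 0.892 to 0.919), and Pdgfa most like Tpm3, Rpl7l1, Akr1b8, Ammecr1 and Cnot6 (r 0.874 to 0.904). No gene stood on the lists of 2 members, and no member stood on another's.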

How the data were processed

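The authors mounted cryostat slices of brain on Visium slides and made the deposited UMI counts per gene and spot with Space Ranger 2.0.0 on mm10, as given in the submitters' processing notes. Counts were used as deposited, with no filter on spots except 4 spots without UMIs. Connected pieces of tissue were taken as slices. In the shared area the smaller was read as rest and the larger as 2 dpi, which the labels do not state. Counts were summed per slice and spot class and tested in edgeR 4.0.16 (filterByExpr, TMM, quasi-likelihood F test) with Benjamini-Hochberg adjustment over all genes tested and a threshold of 0.05. The 6 slices at 7 and 21 dpi shared 1 fit, with the slice as a block where spot classes of the same slice were compared. The code was tested on simulated counts. Alternatives were DESeq2 1.42.0, RLE size factors, no count filter, other Col1a1, depth, near and edge settings, no block, and each slice left out. Promoters came from RefSeq. R 4.3.3 and Python 3.11.15 with scipy 1.17.1 were used.

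The 6 genes and all gene lists were chosen with earlier results of these data known. Besides the 6, the text names up to 3 called genes with the largest change from each pathway list in a comparison, and the 5 genes most like each member, and 1 gene that this rule selects is not reported here. Protein sequences were not used here. Exact Poisson intervals cover counting error only.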

Additional observations from a re-analysis of the deposited data

How the results depend on the processing

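Across 81 results and 988 alternative values, 928 kept direction and side of the threshold or moved within their limits. Groups had 2 slices and near tissue 17 to 37 spots a slice, which limits precision, and causes of changes were not tested. Without the slice block the counts of PDGF genes called were 5 (7 dpi), 6 (21 dpi WT), 5 (Cthrc1(creER); R26(DTA)) and 6 (6 slices) in fibrotic against Col1a1-free spots, 0 near the fibrosis and 3 at the edge, as with the block.

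A group left with 1 slice was assumed to vary like the others. Leaving out each slice, 3 to 5 genes were called in fibrotic spots at 7 dpi, 0 to 1 between 7 and 21 dpi in fibrotic spots, and 1 to 4 at the edge, where Pdgfc was added without 7 dpi slice 1. The count between 7 and 21 dpi was 0 with DESeq2 and 0 without the Cthrc1(creER); R26(DTA) slices, and the edge count was 1 without those slices and 1 in the 4 WT slices. Other lost calls were Pdgfa at 21 dpi without WT slice 1 (edgeR adjusted p = 0.112) and Pdgfb in Cthrc1(creER); R26(DTA) slices with DESeq2 (adjusted p = 0.0895) or without either of them (edgeR adjusted p = 0.0771 and 0.143).

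With spots under 5 Col1a1 UMIs per 10000 as the comparison, the log2 values turned to 0.39 for Pdgfc in the difference of effects, and to -0.35 (Pdgfc) and -0.39 (Pdgfd) between 7 and 21 dpi in those spots. With at least 10 Col1a1 UMIs per 10000, Pdgfb near fibrosis turned to -0.43. Leaving out slices, the log2 value of Pdgfd in fibrotic spots at 7 dpi ran from -0.65 to 1.96. For the difference of effects the ranges were -1.39 to 0.33 (Pdgfc) and -0.47 to 0.0383 (Pdgfrb). In fibrotic spots between 7 and 21 dpi they were -0.12 to 0.25 (Pdgfb) and -0.98 to 0.20 (Pdgfc). In Col1a1-free spots between 7 and 21 dpi they were -0.0309 to 0.36 (Pdgfa), -0.0825 to 0.48 (Pdgfc), -0.73 to 1.35 (Pdgfd) and -0.20 to 0.0127 (Pdgfrb). Between Cthrc1(creER); R26(DTA) and WT they were -0.0497 to 0.44 (Pdgfc), -0.11 to 0.32 (Pdgfra) and -0.10 to 0.16 (Pdgfrb). Near fibrosis Pdgfc ran from -0.0609 to 0.90, and at the edge Pdgfb ran from -0.20 to 0.0158. Apart from Pdgfd at 7 dpi, none of these values that changed sign belonged to a test that had passed or to the fibrotic comparison.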
